A study of Homo sapiens with 6 samples.

Results

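Clade B serpins are the intracellular branch of the serpin family of protease inhibitors. A set of 8 of these genes, SERPINB1, SERPINB3, SERPINB4, SERPINB5, SERPINB6, SERPINB7, SERPINB8 and SERPINB9, was read by symbol from a count table of 26485 rows. They were chosen by family membership, with their counts in these same AQP1 KO and WT libraries known. Family membership alone does not give this set, since there are 13 clade B genes. SERPINB2 (plasminogen activator inhibitor) was set aside. SERPINB10, SERPINB11, SERPINB12 and SERPINB13, with 0 to 3 counts in either clone and too low to test, were also left out. The contrast of the clones is therefore a description of these 8 genes, and no test of them is given. Polyadenylated RNA was sequenced from HuCCT1 cells, a human line established from a bile duct cancer (cholangiocarcinoma). There were 3 libraries (a, b, c) of CRISPR clone 22, labelled AQP1 KO, and 3 libraries (a, b, c) of CRISPR clone 1, labelled WT. Both clones were grown in DMEM-F12 with serum. AQP1 encodes the water channel aquaporin-1, and the title of the series asks about its loss and the epithelial-mesenchymal transition. Each genotype is 1 clone, so genotype and clone cannot be told apart, and the labels do not say whether the letters mark separate cultures.

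A serpin presents an exposed loop as bait. The protease that cuts the loop is dragged across the inhibitor and stays bound to it. Clade B serpins lack a classical signal peptide and mostly stay in the cytosol or nucleus, where they guard the cell against its own or incoming granule and lysosomal proteases. In humans their genes lie in a cluster on chromosome 6 and another on chromosome 18. In surface epithelia several of them mark squamous differentiation, and SERPINB5 (maspin) is known as an epithelial gene often lost in carcinomas.

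The promoters of the pair with the largest fold changes are shown because they are nearly the same sequence, as are the genes they drive. SERPINB4 and SERPINB3, the squamous cell carcinoma antigens, start from windows that match at 296 of 300 bases in the RefSeq promoter table of GRCh38.p14 (250 bases before to 50 after the annotated start). Capitals mark the 4 positions where the windows differ. The SERPINB5 window is shown as the contrast, a neighbour in the same cluster that moved the other way, and capitals mark its single CAGGTG. Windows lie at chr18:63644207-63644506 (minus strand, SERPINB4), chr18:63661844-63662143 (minus strand, SERPINB3) and chr18:63476708-63477007 (plus strand, SERPINB5).
SERPINB4: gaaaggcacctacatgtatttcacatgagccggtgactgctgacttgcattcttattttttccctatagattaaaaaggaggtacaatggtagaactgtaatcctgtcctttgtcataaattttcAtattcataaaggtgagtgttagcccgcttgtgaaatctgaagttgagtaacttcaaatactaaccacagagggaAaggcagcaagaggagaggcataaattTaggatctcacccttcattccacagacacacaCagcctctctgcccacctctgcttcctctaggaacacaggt
SERPINB3: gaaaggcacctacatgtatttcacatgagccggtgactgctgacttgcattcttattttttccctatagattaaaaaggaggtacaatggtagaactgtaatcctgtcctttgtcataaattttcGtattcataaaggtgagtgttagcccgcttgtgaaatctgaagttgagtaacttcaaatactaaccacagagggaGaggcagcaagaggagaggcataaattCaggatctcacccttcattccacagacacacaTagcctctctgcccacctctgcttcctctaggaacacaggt
SERPINB5: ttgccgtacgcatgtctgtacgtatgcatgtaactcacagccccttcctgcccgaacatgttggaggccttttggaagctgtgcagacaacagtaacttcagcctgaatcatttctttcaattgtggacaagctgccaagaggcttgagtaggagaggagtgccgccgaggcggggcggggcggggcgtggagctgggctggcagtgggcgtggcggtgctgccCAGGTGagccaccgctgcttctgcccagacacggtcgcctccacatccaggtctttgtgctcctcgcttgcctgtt

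Counted from 1 at the 5′ end of the window, with the SERPINB3 base first, the differences are G126A, G201A, C228T and T260C. The windows of SERPINB4 and SERPINB3 held 42.3% and 43.0% G and C, against 59.7% in that of SERPINB5. Searched on both strands, CAGGTG (an E-box of the kind bound by ZEB and SNAI repressors) was present in the SERPINB5 window at position 225 and in no first-listed window of the other 7 members, while 20.6% of 27305 gene promoters held it. Among the members, TGANTCA (a loose AP-1 pattern that allows any middle base) was found in the SERPINB5 window at position 105, where it reads TGAATCA. It was also found in the SERPINB8 window, and in 7.76% of all promoters. Outside the members, the windows of SERPINB2, SERPINB12 and SERPINB13 also held TGANTCA, and that of SERPINB13 held CAGGTG. These matches are letters in a window and not evidence of binding.

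Library totals were 36925338 to 41724447 counts, and a count of 3, taken as the floor, was 0.0719 to 0.0812 CPM (a gene's counts scaled to a library total of 1000000). The targeted gene AQP1 had 10, 7 and 7 counts in AQP1 KO libraries a to c, against 2, 8 and 10 in WT libraries a to c. AQP1 was below the filter of the fit, and with so few counts in either clone the genotype could not be checked from its RNA. Of 13 bile duct markers 11 were tested, 2 rose, 8 fell and 1 did not pass, and the summed level was 2790 to 2860 CPM in AQP1 KO and 6380 to 6420 CPM in WT. In bulk RNA, fewer cells of a type and less RNA per cell cannot be told apart. A total of 14405 genes were fitted with edgeR's quasi-likelihood test (Benjamini-Hochberg adjustment, threshold 0.05), and 74.4% of them were called, 37.1% higher and 37.2% lower in AQP1 KO. For 77.3% the CPM ranges of the groups did not overlap. Against that background 5 of the 8 members were called, 3 higher and 2 lower, and the same number had ranges that did not overlap. Nothing is read from these counts, since the contrast was known when the genes were chosen. Their log2 fold changes had a median of -0.03, against 0.01 over all genes tested. All 8 members passed the filter, which is not informative because the clade B genes too low to test were left out. SERPINB3 and SERPINB4 passed by their AQP1 KO libraries alone, so for these 2 genes a higher level in AQP1 KO was built in.

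**Figure D1:**
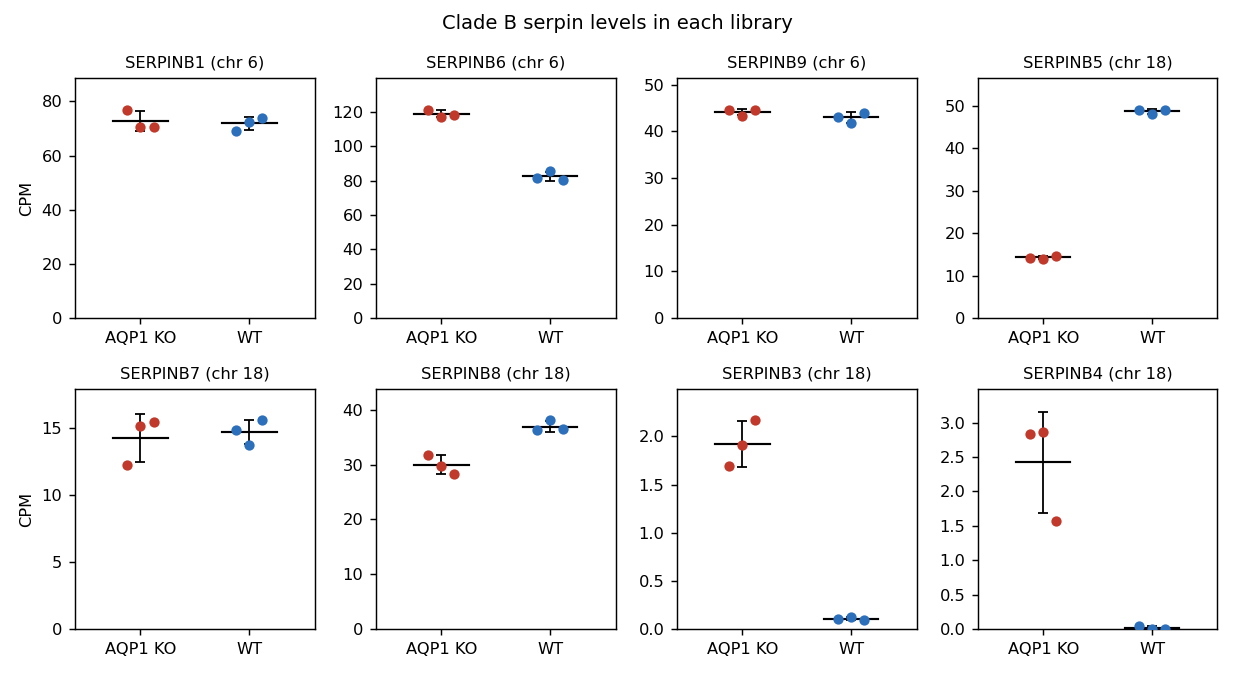
CPM (y axis, linear from 0, own scale per gene) of the 8 clade B serpins in each library, AQP1 KO left in red and WT right in blue; black lines are means and bars SD of 3 libraries. SERPINB4 and SERPINB3 are near 0 in WT, SERPINB5 is at 14.0 to 14.7 CPM in AQP1 KO and 48.0 to 49.1 CPM in WT, and SERPINB1, SERPINB7 and SERPINB9 overlap between the clones.

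SERPINB4 and SERPINB3 were near the floor in WT and present at low levels in AQP1 KO. SERPINB4, which inhibits chymotrypsin-like serine proteases such as cathepsin G and mast cell chymase, had 116, 117 and 58 counts in AQP1 KO libraries a to c, against 2, 0 and 0 in WT libraries a to c. SERPINB3, which inhibits the cysteine cathepsins L, K and S, had 69, 78 and 80 counts in AQP1 KO libraries a to c, against 4, 5 and 4 in WT libraries a to c. Every AQP1 KO library stood above every WT library for both genes.

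In CPM, SERPINB4 averaged 2.42 ± 0.739 in AQP1 KO and 0.016 ± 0.028 in WT, and SERPINB3 averaged 1.92 ± 0.239 in AQP1 KO and 0.105 ± 0.014 in WT (SD, n = 3 each, as for all means below). The ratio of summed counts was 152 for SERPINB4 (95% counting interval 41.6 to 1260) and 18.2 for SERPINB3 (10.4 to 34.7). The SERPINB4 ratio rests on 2 WT counts, both in library a. In the fit the log2 fold changes were 6.93 (SE 0.62) for SERPINB4 and 4.10 (SE 0.36) for SERPINB3, and without WT library a the fitted value of SERPINB4 was 9.59, which is no bound because WT then had 0 counts.

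The observed share of each gene in the pair varied across the AQP1 KO libraries. SERPINB4 made up 62.7% of the counts of both genes in AQP1 KO library a (exact 95% interval 55.3 to 69.7%), 60.0% in library b (52.8 to 66.9%) and 42.0% in library c (33.7 to 50.7%). The interval of library c lay below those of a and b: its SERPINB4 level was 1.57 CPM against 2.84 and 2.86 CPM, while its SERPINB3 level, 2.17 CPM, was above the 1.69 and 1.91 CPM of a and b. In WT the pair had 6, 5 and 4 counts, too few to give a share. Intervals cover counting error only, and replicate libraries differed by more than that. Over all genes the chi-square per degree of freedom was 7.6 for AQP1 KO libraries a and c and 7.29 for b and c. Whether the ratio of the pair differs in library c was not tested.

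How reads were divided between these 2 genes is uncertain. Their coding sequences were 95.2% identical, against 52.2 to 72.8% (median 56.6%) in the other 27 pairs of members, the closest of which was SERPINB8 and SERPINB9. Of the 50-base stretches in GENCODE 29 transcripts of SERPINB4, 20.1% also occurred in SERPINB3, and 23.3% of those of SERPINB3 occurred in SERPINB4. Exons of SERPINB3 also overlap exons of SERPINB11 on the opposite strand, where SERPINB11 had 0 counts in all 6 libraries. The sum of the pair does not depend on that division, though any reads discarded as ambiguous would be missing from it. It was 4.53, 4.77 and 3.74 CPM in AQP1 KO libraries a to c, against 0.148, 0.121 and 0.096 CPM in WT libraries a to c.

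**Figure D2:**
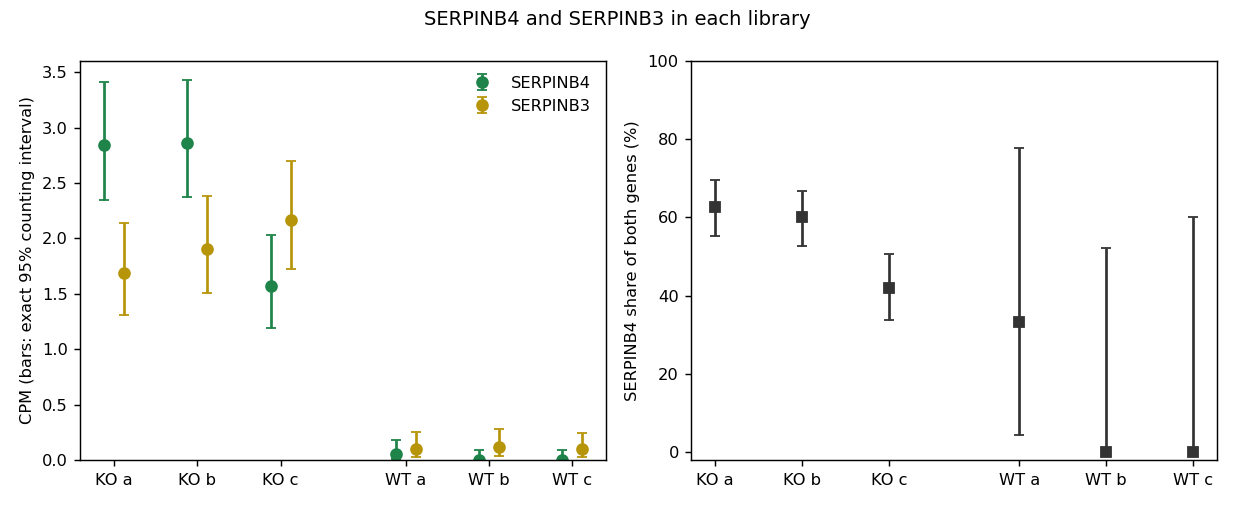
Left, CPM of SERPINB4 (green) and SERPINB3 (ochre) in each library (KO, AQP1 KO) with exact 95% counting intervals; right, SERPINB4 as a percentage of the counts of both genes with exact 95% intervals. SERPINB4 exceeds SERPINB3 in AQP1 KO libraries a and b and not in c, and the WT shares rest on 4 to 6 counts.

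SERPINB5 was the member with the largest lower level in AQP1 KO. Maspin belongs to the family by sequence but is known not to inhibit proteases; it affects adhesion and migration of epithelial cells. It had 14.3, 14.0 and 14.7 CPM in AQP1 KO libraries a to c, against 49.1, 48.0 and 49.0 CPM in WT libraries a to c. The groups were far apart and the spread within each was small, with means of 14.3 ± 0.390 CPM in AQP1 KO and 48.7 ± 0.570 CPM in WT. The log2 fold change was -1.82 (SE 0.06), so the WT level was 3.53 times that of AQP1 KO. Across settings that left out a library or changed the scaling, filter or tool, it stayed between -1.84 and -1.79.

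The chromosome 6 genes were abundant in both clones. SERPINB6, a broadly expressed inhibitor of trypsin-like proteases and cathepsin G, had 121, 117 and 118 CPM in AQP1 KO libraries a to c, against 81.4, 85.4 and 80.5 CPM in WT libraries a to c. All AQP1 KO libraries were higher, with a log2 fold change of 0.47 (SE 0.03), which is 1.39-fold. SERPINB1, the inhibitor of neutrophil elastase, cathepsin G and proteinase 3, had 76.9, 70.4 and 70.6 CPM in AQP1 KO libraries a to c, against 69.2, 72.3 and 74.0 CPM in WT libraries a to c. Its groups overlapped, and the log2 fold change was -0.04 (SE 0.04). SERPINB9, the inhibitor of granzyme B that protects cells from their own or a killer cell's granules, had 44.6, 43.4 and 44.6 CPM in AQP1 KO libraries a to c, against 43.2, 41.8 and 44.0 CPM in WT libraries a to c. These ranges also overlapped, and the log2 fold change was -0.01 (SE 0.05). The fitted values of SERPINB1 and SERPINB9 lie slightly below 0 although their mean CPM was slightly higher in AQP1 KO, because TMM scaling factors were 1.015 to 1.024 in AQP1 KO and 0.980 to 0.983 in WT.

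The pseudogene SERPINB9P1, which lies between SERPINB1 and SERPINB9 and was named after its values were seen, had 93, 74 and 69 counts in AQP1 KO libraries a to c, against 17, 41 and 18 in WT libraries a to c. It rose in the fit (log2 fold change 1.63, SE 0.34, edgeR adjusted p = 0.000685), while the ranges of both neighbours overlapped. Few 50-base stretches were shared with any other gene: 3.19% for SERPINB9, 0.641% for SERPINB6 and 0 for SERPINB1.

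The other 2 members on chromosome 18 differed little. SERPINB8, known as an inhibitor of the proprotein convertase furin, had 31.8, 29.8 and 28.3 CPM in AQP1 KO libraries a to c, against 36.2, 38.1 and 36.5 CPM in WT libraries a to c. The groups did not overlap, and the log2 fold change was -0.36 (SE 0.06). Its exons overlap those of HMSD on the same strand over 370 bases, and 5.42% of its 50-base stretches occur there, so part of its reads could be assigned to either gene. SERPINB7 (megsin), loss of which causes a palmoplantar keratosis in humans, had 12.2, 15.1 and 15.4 CPM in AQP1 KO libraries a to c, against 14.8, 13.7 and 15.6 CPM in WT libraries a to c. AQP1 KO library a was the lowest of the 6, the groups overlapped, and the log2 fold change was -0.10 (SE 0.09).

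Levels of different genes were compared per kilobase of transcript, using the median length of complete coding transcripts in GENCODE 29. In AQP1 KO the order was SERPINB6 (79.5 ± 1.39 CPM per kb), SERPINB1 (27.7 ± 1.40), SERPINB9 (10.7 ± 0.168), SERPINB8 (9.39 ± 0.546), SERPINB5 (7.07 ± 0.193), SERPINB7 (6.83 ± 0.851), SERPINB4 (1.39 ± 0.423) and SERPINB3 (1.16 ± 0.144). In WT it was SERPINB6 (55.1 ± 1.74 CPM per kb), SERPINB1 (27.4 ± 0.940), SERPINB5 (24.0 ± 0.281), SERPINB8 (11.6 ± 0.309), SERPINB9 (10.4 ± 0.279), SERPINB7 (7.05 ± 0.442), SERPINB3 (0.063 ± 0.008) and SERPINB4 (0.009 ± 0.016). SERPINB5 stood above SERPINB8 and SERPINB9 in WT and below both in AQP1 KO. Neighbours whose libraries overlapped were SERPINB5 with SERPINB7 and SERPINB4 with SERPINB3 in AQP1 KO, and none of the members in WT.

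The order depends on the length used, most of all for SERPINB6. This gene has 13 complete coding transcripts with a median of 1495 bases, but its annotated exons cover 13201 bases. With the union of exons as length, an alternative chosen after seeing the data, its level was 9.01 CPM per kb in AQP1 KO and 6.24 CPM per kb in WT, and SERPINB1 came first among the members in both clones (23.5 CPM per kb in AQP1 KO and 23.2 CPM per kb in WT). Other places changed too: SERPINB7 (5.40 CPM per kb) then stood above SERPINB8 (5.11) and SERPINB5 (3.63) in AQP1 KO, and SERPINB9 (10.4 CPM per kb) above SERPINB8 (6.30) in WT. SERPINB5 remained above SERPINB8 and SERPINB9 in WT and below both in AQP1 KO.

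**Figure D3:**
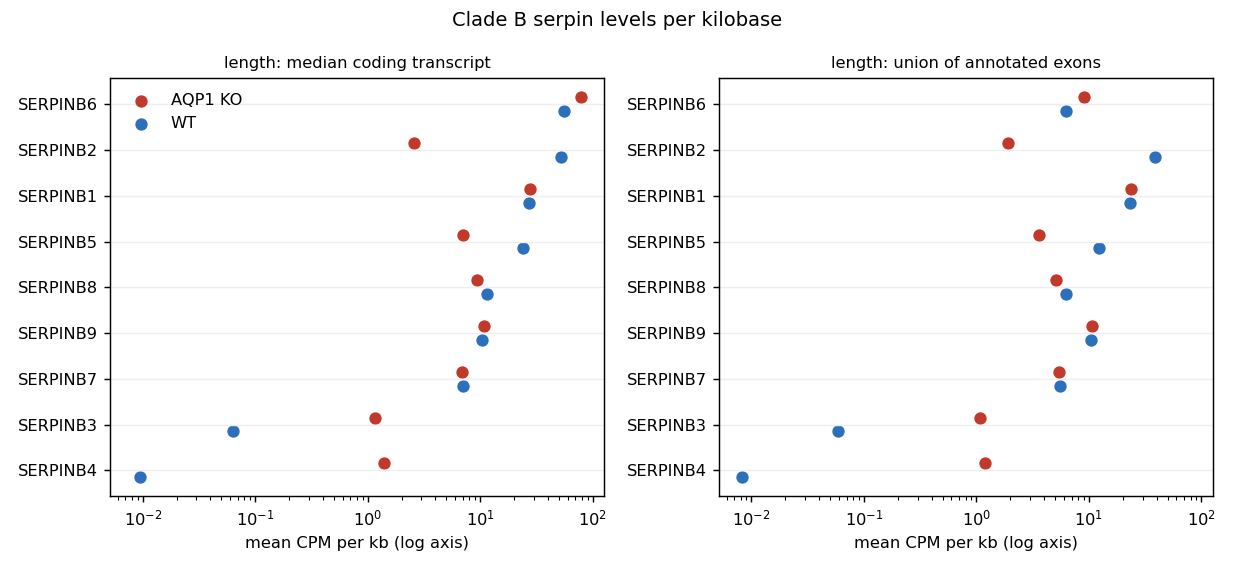
Mean CPM per kilobase (log x axis) of the 8 members and SERPINB2 in AQP1 KO (red, upper point of each row) and WT (blue, lower point), with the median coding transcript (left) or the union of annotated exons (right) as length. SERPINB6 in AQP1 KO is at 79.5 CPM per kb with the median transcript and at 9.01 with the union. The libraries (not drawn singly) of SERPINB3, SERPINB4, SERPINB5, SERPINB6, SERPINB8 and SERPINB2 are separated between clones. A gene's length is the same for both clones, so the choice of length cannot change that separation.

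The remaining clade B genes were measured in the same table, and only SERPINB2 was high enough to be tested. SERPINB2, the inhibitor of urokinase and tissue plasminogen activator, had 5.17, 5.38 and 5.2 CPM in AQP1 KO libraries a to c, against 98.9, 109.9 and 108.1 CPM in WT libraries a to c. It fell by 4.38 on the log2 scale (SE 0.06, edgeR adjusted p = 1.34e-15). Per kilobase of median coding transcript SERPINB2 was at 2.58 ± 0.056 CPM in AQP1 KO and 51.9 ± 2.90 CPM in WT, where its libraries overlapped with those of SERPINB6. With the union of exons as length the WT levels were apart, at 38.4 CPM per kb for SERPINB2 and 6.24 CPM per kb for SERPINB6. SERPINB10, a gene of blood-forming cells, had 3 counts in AQP1 KO and 2 in WT, and SERPINB12 had 0 in AQP1 KO and 2 in WT. SERPINB11 and SERPINB13 had 0 counts in all 6 libraries. SERPINB2 and SERPINB10 share exons on the same strand over 547 bases. Summed over the 13 clade B genes, the level was 146 ± 2.53 CPM per kb in AQP1 KO and 188 ± 4.42 CPM per kb in WT. Over the 12 genes without SERPINB2 it was 144 ± 2.57 CPM per kb in AQP1 KO and 136 ± 1.55 CPM per kb in WT, and with the union of exons as length this second sum was 59.6 ± 1.08 CPM per kb in AQP1 KO and 64.2 ± 1.01 CPM per kb in WT, the opposite direction.

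The members of a cluster did not move together. The rule did not use position, but the contrast was known when the genes were chosen, so this is a description. On chromosome 18 (GRCh38) the 5 members lie within 542.8 kb, from SERPINB5 at 63476958 to the end of SERPINB8 at 64019779. SERPINB4 (63637259 to 63644256) and SERPINB3 (63655197 to 63661893), higher in AQP1 KO, lie between SERPINB5 (63476958 to 63505085), lower, and SERPINB7 (63753057 to 63805370), whose groups overlapped. The direction of SERPINB4 and SERPINB3 was built in, since they passed the filter by their AQP1 KO libraries alone. SERPINB2 (63887705 to 63903888), the largest fall of the family, lies between SERPINB7 and SERPINB8. On chromosome 6 SERPINB1 (2832332 to 2841863), SERPINB9 (2887270 to 2903309) and SERPINB6 (2948159 to 2971793) lie within 139.5 kb.

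Genes around the clusters also moved in both directions, as did all genes tested (37.1% called higher, 37.2% lower, median log2 fold change 0.01). Within 5 Mb of the chromosome 18 cluster 18 other genes were tested, of which 9 rose, 6 fell and 3 did not pass, with a median log2 fold change of 0.12, which was -0.04 over the 10 genes within 2 Mb. The adjoining tested gene on the SERPINB5 side, VPS4B, fell by 0.17 on the log2 scale, and on the SERPINB8 side the first tested gene, TMX3 at 4654 kb, had a value of 0.08 and did not pass. HMSD, inside the cluster beside SERPINB8, fell by 1.30. BCL2, an apoptosis inhibitor on the same side as VPS4B and named after its values were seen, rose to 8.14 ± 0.332 CPM in AQP1 KO, against 0.469 ± 0.106 CPM in WT (log2 fold change 4.05). Within 5 Mb of the chromosome 6 cluster 33 other genes were tested, of which 16 rose, 10 fell and 7 did not pass, with a median of 0.25, which was 0.62 over the 20 genes within 2 Mb. There WRNIP1, beside SERPINB1, fell by 0.29 and LINC01011, beside SERPINB6, had a log2 fold change of 0.75 and did not pass (edgeR adjusted p = 0.0876).

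**Figure D4:**
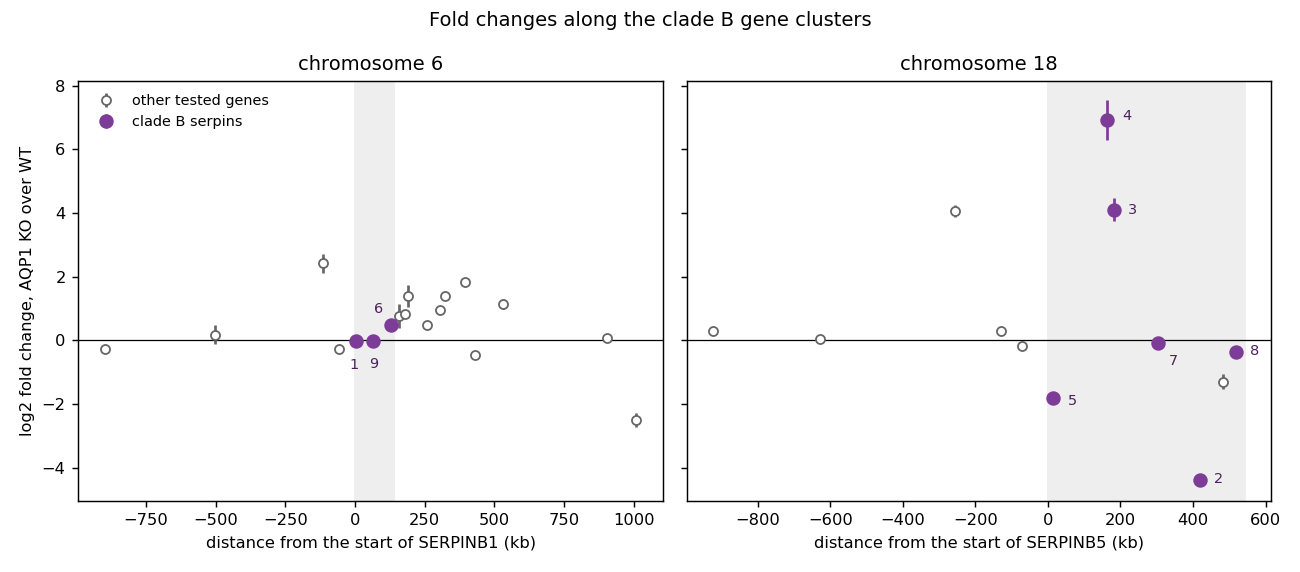
Log2 fold change of AQP1 KO over WT (y axis, bars SE) against distance from the start of SERPINB1 (left, chromosome 6) or SERPINB5 (right, chromosome 18) in kb; purple points are clade B serpins labelled by number, open points other tested genes within 1 Mb, and grey marks the span of the members. On chromosome 18 values of 6.93 and 4.10 (SERPINB4, SERPINB3) stand between -1.82 (SERPINB5) and -4.38 (SERPINB2).

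By the distance between mean-centred log2 CPM profiles over the 6 libraries, the genes most like SERPINB5 were GPRC5A (distance 0.067), COBLL1 (0.069) and CLDN1, a claudin of tight junctions (0.082). GPRC5A had 455 ± 1.94 CPM in AQP1 KO and 1540 ± 33.6 CPM in WT, COBLL1 16.8 ± 0.808 CPM in AQP1 KO and 57.6 ± 0.820 CPM in WT, and CLDN1 74.1 ± 1.19 CPM in AQP1 KO and 244 ± 5.58 CPM in WT. Genes most like SERPINB4 were LRRN2 (distance 0.682), MARK1 (0.719) and BGN (0.731), a looser match. With 2 groups of libraries this likeness mostly reflects a fold change of similar size.

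Proteases that clade B serpins are known to inhibit moved in both directions, as did all genes tested (37.1% called higher, 37.2% lower). Of 20 listed genes 11 were tested, of which 3 rose, 4 fell and 4 did not pass, with a median log2 fold change of 0.02. CTSL, the lysosomal cysteine protease cathepsin L and a target of SERPINB3, rose to 168 ± 1.30 CPM in AQP1 KO, against 54.6 ± 1.65 CPM in WT (log2 fold change 1.56, SE 0.03, edgeR adjusted p = 2.22e-14). The other cathepsins named above as SERPINB3 targets did not follow it: CTSS fell to 12 ± 0.622 CPM in AQP1 KO, against 21.2 ± 1.79 CPM in WT (log2 fold change -0.87, SE 0.08, edgeR adjusted p = 2.1e-07), and CTSK, at 1.33 ± 0.374 CPM in AQP1 KO and 1.08 ± 0.228 CPM in WT, did not pass (edgeR adjusted p = 0.479). CTSS and CTSK were named after their values were seen. PLAU, the urokinase gene and a target of SERPINB2, rose to 134 ± 0.420 CPM in AQP1 KO, against 93.0 ± 2.09 CPM in WT. PLAT, the gene of its other target, tissue plasminogen activator, was named after its values were seen. It had 39.0 ± 1.17 CPM in AQP1 KO and 35.8 ± 0.788 CPM in WT and did not pass (edgeR adjusted p = 0.248). FURIN, the target of SERPINB8, fell to 23.0 ± 0.617 CPM in AQP1 KO, against 41.0 ± 0.311 CPM in WT (log2 fold change -0.88, SE 0.05, edgeR adjusted p = 3.8e-09), and the kallikrein gene KLK5 fell to 0.134 ± 0.054 CPM, against 0.388 ± 0.062 CPM in WT (edgeR adjusted p = 0.0143). The KLK5 call was lost without WT library b (edgeR adjusted p = 0.059), without AQP1 KO library b (0.065) or c (0.0513), and in DESeq2 (0.0586). KLK5 had 16 counts in AQP1 KO and 48 in WT. The granule proteases that SERPINB1, SERPINB4, SERPINB6 and SERPINB9 are best known for were not found: ELANE, CTSG, PRTN3, CMA1 and GZMB had 0 counts in all 6 libraries.

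Of 11 other lysosomal cathepsins 9 were tested, of which 4 rose, 4 fell and 1 did not pass, while 74.4% of all genes tested were called. CTSB rose to 521 ± 14.9 CPM in AQP1 KO, against 230.0 ± 2.54 CPM in WT, and CTSD to 381 ± 5.03 CPM, against 175 ± 7.19 CPM in WT. CTSC, which activates granule serine proteases, fell to 491 ± 5.35 CPM in AQP1 KO, against 1050 ± 29.6 CPM in WT, and CTSE fell to 0.709 ± 0.023 CPM, against 1.5 ± 0.125 CPM in WT.

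Serpins of other clades are mostly secreted. Of 21 such genes 9 were tested and all 9 rose, where 37.1% of all genes tested were called higher and 37.2% lower. Their median log2 fold change was 1.52, against 0.01 over all genes tested. For 3 of the 9, which passed the filter by the AQP1 KO libraries alone, the direction was built in. SERPINE2 (protease nexin), an inhibitor of thrombin and urokinase, rose to 66.4 ± 1.87 CPM in AQP1 KO, against 0.365 ± 0.092 CPM in WT (log2 fold change 7.44, SE 0.11, edgeR adjusted p = 1.4e-15). SERPINA5, the protein C inhibitor, had 404 counts in AQP1 KO and 9 in WT (log2 fold change 5.44, SE 0.33), and is 1 of the 3 that passed the filter by the AQP1 KO libraries alone. Whether this group differs from the clade B genes was not tested.

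Cystatins and small inhibitors, of which 13 of 16 were tested, gave 6 rises, 2 falls and 5 genes that did not pass. Over all genes tested, 37.1% were called higher and 37.2% lower. Of the 13, 3 passed the filter by the AQP1 KO libraries alone, CST1 and CST4 among them, and 1 by the WT libraries alone. All 3 were called higher, a direction that was built in. CST1, a secreted cystatin, had 498 counts in AQP1 KO and 0 in WT, at least 173-fold higher against 3 counts over the WT group, and CST4 had 201 counts in AQP1 KO and 3 in WT; reads of these close copies may have been divided uncertainly. CST6 (cystatin M), an epithelial inhibitor of cathepsin L, fell to 37.5 ± 0.502 CPM in AQP1 KO, against 203 ± 3.08 CPM in WT (log2 fold change -2.49, SE 0.03, edgeR adjusted p = 1.95e-16). TFPI2 fell to 3.17 ± 0.435 CPM in AQP1 KO, against 58.7 ± 2.87 CPM in WT.

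**Figure D5:**
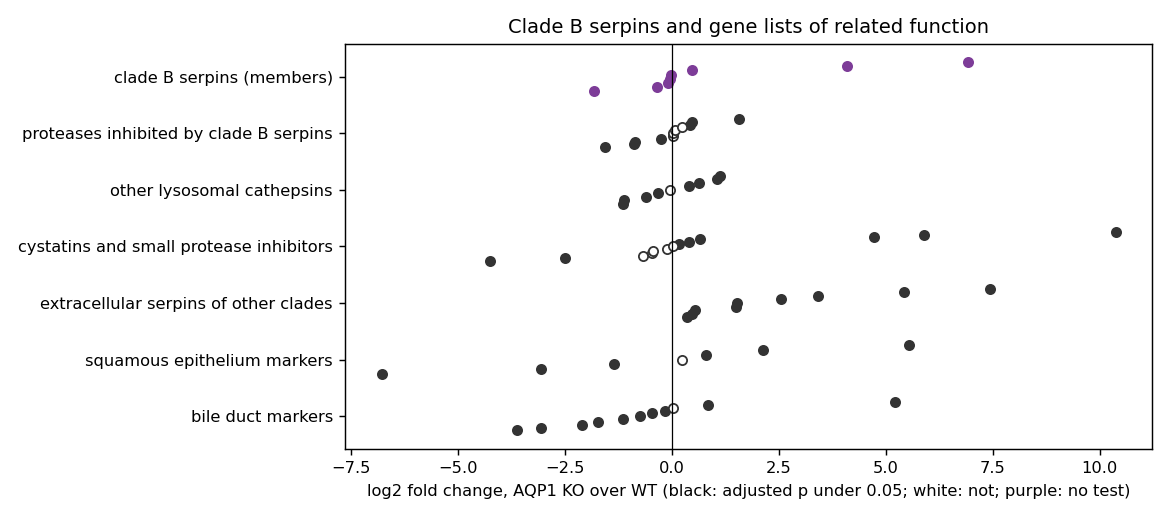
Log2 fold change of AQP1 KO over WT (x axis) for the 8 clade B serpins (purple, no test) and for tested genes of 6 lists (rows; black, adjusted p under 0.05; white, not). All 9 tested extracellular serpins lie above 0, 3 of them having passed the filter by the AQP1 KO libraries alone. The other lists spread to both sides, and 37.1% of all genes tested were called higher. CST1, at 10.38, had 0 counts in WT, so its fitted value is no bound.

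Squamous epithelium, where SERPINB3, SERPINB4, SERPINB5 and SERPINB7 are abundant, was not represented as a whole. Of 17 squamous markers 7 were tested, of which 3 rose, 3 fell and 1 did not pass, while 74.4% of all genes tested were called. The summed level was 106 to 110.0 CPM in AQP1 KO and 252 to 261 CPM in WT. Most of that sum was SFN (stratifin), named after its values were seen, which fell to 95.9 ± 1.62 CPM in AQP1 KO, against 238 ± 6.18 CPM in WT. The other 16 markers together gave 10.9 to 11.9 CPM in AQP1 KO and 15.4 to 18.7 CPM in WT. KRT6A had 64 counts in AQP1 KO and 1 in WT (log2 fold change 5.54, SE 0.85, edgeR adjusted p = 4.46e-05), and KRT5 rose to 1.41 ± 0.355 CPM in AQP1 KO, against 0.307 ± 0.058 CPM in WT. TP63, the master regulator of squamous cells, fell to 0.051 ± 0.049 CPM in AQP1 KO, against 0.429 ± 0.090 CPM in WT, and the desmosome gene DSC3 fell to 0.082 ± 0.102 CPM, against 9.21 ± 0.589 CPM in WT. The cornified envelope genes IVL, SPRR1A, SPRR1B, SPRR2A and SPRR3 had 0 counts in all 6 libraries. Of 15 markers of cytotoxic lymphocytes and neutrophils, blood cells rich in SERPINB9 and SERPINB1, 2 were tested. LTF fell to 3 counts in AQP1 KO, against 106 in WT, and the summed level of the list was 0.948 to 1.42 CPM in AQP1 KO and 0.839 to 2.42 CPM in WT, with PTPRC, NKG7, GZMA, GZMB, ELANE, AZU1 and CEACAM8 at 0 throughout. Among bile duct markers EPCAM and KRT19 fell most (log2 fold changes -3.63 and -3.07) and SPP1 and ANXA4 rose (5.22 and 0.84); the part of these markers in the serpin levels was not tested. Among the genes named from the lists, KLK5, TP63, DSC3 and LTF passed the filter by the WT libraries alone. CST1, CST4, KRT6A, SPP1 and SERPINA5 passed it by the AQP1 KO libraries alone.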

How the data were processed

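The authors deposited 1 table of whole-number read counts per gene symbol for 6 libraries, without normalization. The submitters' processing notes name build hg38 and the tools HISAT2, Trimmomatic 0.33, edgeR and FastQC. Which program, annotation and strand setting made the counts is not given in the sources used here; the library kit is stranded per the labels' protocols. Genes were fitted across the whole table with edgeR 4.0.16 (R 4.3.3), using TMM scaling after filterByExpr and the quasi-likelihood F test over all 6 libraries without covariate, Benjamini-Hochberg adjustment, threshold 0.05. The filter kept 14405 of 26485 rows and is met near 0.245 CPM. Each SE was taken as the absolute log2 fold change over the root of its F statistic. P-values measure the spread between libraries, which may be technical. Replicate pairs had a chi-square of 4.18 to 7.6 per degree of freedom, so none agreed within sampling noise. The steps were tested on simulated counts in which few genes were changed, up or down at random. That test does not cover data in which most genes are called, as here. Intervals are exact at 95%. The labels do not say whether the letters pair the libraries. Correlations of same-letter deviations were -0.02 to 0.058, against -0.05 to 0.041 for different letters. With 3 libraries per group, such values cannot exclude a pairing.

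Members and lists were chosen with earlier results of these data known. Named genes are all clade B genes, the 2 largest called rises and 2 largest called falls of each list, genes adjoining the clusters, and the 3 nearest profiles of the 2 extreme members. Coordinates and promoters are RefSeq's (GRCh38.p14, the assembly of hg38). Of 13 clade B genes 11 had a promoter entry, and the first listed was searched. Transcript lengths and shared 50-base stretches come from GENCODE 29, with identities from global alignment in Biopython 1.88. Alternatives were RLE factors, no filter, 1 CPM in 3 libraries, DESeq2 1.42.0, a replicate block, leaving out each library, and a 2 Mb window.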

Additional observations from a re-analysis of the deposited data

How the results depend on the processing

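The members' calls numbered 5 under every one of the 11 alternative fits, and none of the 5 called members changed direction. Of all tested genes 74.4% were called in the main fit. Nothing is read from the members' stable calls, since the contrast was known when the genes were chosen. In the main fit SERPINB3 and SERPINB4 passed the filter by their AQP1 KO libraries alone, so their direction was built in. SERPINB4 ranged from 6.41 to 9.59 on the log2 scale, SERPINB3 from 4.03 to 4.20, SERPINB6 from 0.45 to 0.50 and SERPINB8 from -0.39 to -0.30. SERPINB1, SERPINB7 and SERPINB9, which were not called, lay between -0.152 and 0.008 and changed sign in some alternatives. With the letters as a replicate block 10599 genes were called in place of 10711, and no list's count changed. Leaving out 1 library in turn gave 10326 to 10607 calls. The cytotoxic lymphocyte and neutrophil count was 1 as reported, 3 with no filter or with DESeq2, 0 with 1 CPM in 3 libraries, since none was then tested, and 1 to 3 with a library left out. It was 2 without WT library a, 3 without WT library b and 2 without AQP1 KO library c. A 2 Mb window held 23 called genes (14 higher, 9 lower), since fewer genes lie in it, and the median of the chromosome 18 genes changed sign there. With 1 CPM in 3 libraries KLK5, KRT6A, LTF and TP63 were not tested. With the union of exons as length, chosen after seeing the data, the share of SERPINB6 in the members' summed level was 15.1% in AQP1 KO and 9.73% in WT, in place of 55.3% in AQP1 KO and 40.6% in WT. That of SERPINB1 was 39.4% in AQP1 KO and 36.2% in WT, in place of 19.3% in AQP1 KO and 20.2% in WT. Depth limits SERPINB4 and SERPINB3 in WT, at 0 to 5 counts a library, and 4 of the other clade B genes, which were too low to test.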
